A study of Drosophila melanogaster with 6 samples.

Results

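Glutathione S-transferases (GSTs) are a family of enzymes whose RNA was compared here between larvae of mothers on different diets. The genes were taken by their symbols, Gst followed by the class letter D, E, O, S, T or Z and a number. They number 34 among 11982 genes that carry a probe set of their own on the array, and they were read from 36 of the 18769 tested probe sets. The classes are delta (D, 11 genes), epsilon (E, 13), omega (O, 3), sigma (S, 1), theta (T, 4) and zeta (Z, 2). A gene with more than 1 probe set is represented by the one with the highest mean.

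Whole male larvae of Drosophila melanogaster, strain w1118, were measured on Affymetrix expression arrays, 3 per group. In the control group the mothers, as virgin females, had eaten food with 0.15 M sucrose for 7 days; in the high-sucrose group they had eaten food with 1 M sucrose for as long. By the design text, fathers were w1118 males, and in both groups the embryos were laid on control food and the larvae grew on it at 25 C, the last 12 h on a fresh portion. The titles go against this in part: they describe the larvae themselves as control or high sugar reared, whereas the characteristics, the protocols and the design text give the diet to the mothers. The groups are used here as maternal diets, which every difference below assumes. The labels name the stage both as wandering and as the middle of the third instar. How many larvae went into an array was not stated.

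GSTs join the tripeptide glutathione to reactive and poorly soluble molecules, which makes these easier to export, and some reduce peroxides or isomerise metabolites instead. In insects the delta and epsilon classes are large, lie in tandem arrays of genes and are known for the breakdown of insecticides and plant toxins. Many of their genes are induced by the transcription factor encoded by cnc, with maf-S as its partner and Keap1 as its inhibitor. Larval gut, fat body and Malpighian tubules are known sites of such detoxification.

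Values are probe-set intensities on a linear scale. The intensity of a probe set does not give the level of its gene relative to other genes. Differences are high-sucrose minus control means of log2(intensity + 16), with the standard error (SE) of the fit. Changes were called at an adjusted p under 0.05 over all tested probe sets, from limma with Benjamini-Hochberg adjustment. Means are given ± SD with n = 3 arrays per group. Array medians lay between 51.5 and 55.7, and the upper quartiles between 212.8 and 224.2, with those of the high-sucrose arrays all below those of the controls.

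Most GST genes had lower values in offspring of mothers on high sucrose, and 1 of the 34 passed the test. That gene was the epsilon gene GstE11, which fell; the other 33 did not pass, and 0 rose by limma, with 1 higher at an unadjusted p under 0.05. Over all tested probe sets 0.570% were called lower and 0.0533% higher. The difference was below 0 for 31 of the 34 genes (91.2%; 30 or 31 under the other scalings of the arrays), against 58.9% of all tested probe sets and 62.9% of the upper 50% of them by mean intensity. The median difference was -0.24 on the log2 scale, against -0.03 for all tested probe sets, and the range was -0.71 to 0.39. At an adjusted p under 0.10, 2 GST genes were lower (GstE11 and GstD10), where 1.21% of all probe sets were. At an unadjusted p under 0.05, 19 GST genes were lower (55.9%), where 8.80% of all probe sets and 13.7% of the upper 50% by mean were. The 1 that was higher stands against 3.59% of all probe sets. In 15 genes (44.1%) every high-sucrose array lay below every control array, against 12.6% of all probe sets and 18.2% of the upper 50% by mean. In 1 gene every high-sucrose array lay above, against 5.96% of all probe sets. These shares describe the family and are no test of it, since its genes are measured on the same 6 arrays. In RNA of whole larvae, fewer cells of a type and less RNA per cell cannot be told apart.

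**Figure D1:**
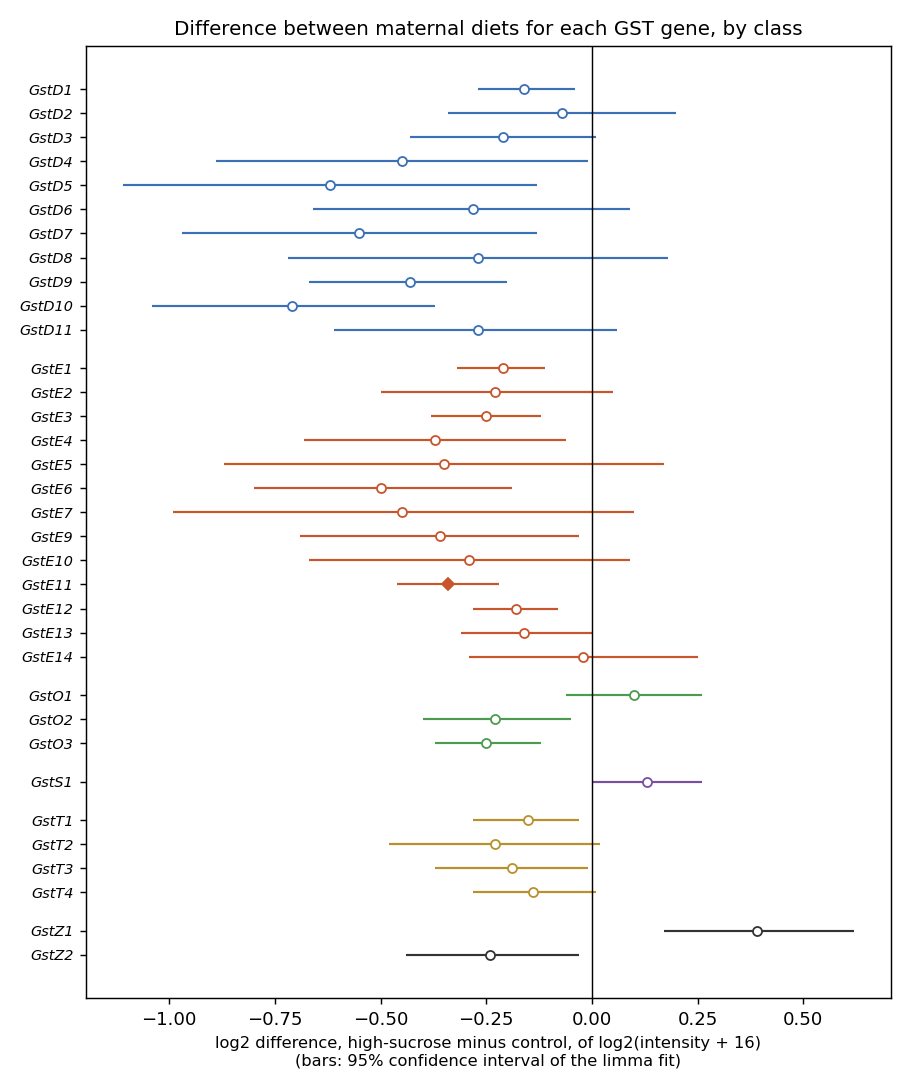
Difference between the maternal diets for each GST gene (x axis: log2 difference, high-sucrose minus control; y axis: genes by class; bars: 95% confidence interval of the limma fit; filled diamond: adjusted p under 0.05). GstE11 is the filled point, all delta, epsilon and theta genes lie below 0 (GstD2 is at 0.00 under quantile scaling and GstE14 under median centring), and GstO1, GstS1 and GstZ1 lie above it.

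The called gene belongs to the epsilon class. GstE11 had intensities of 702, 749 and 743 in the control arrays and 578, 584 and 558 in the high-sucrose arrays. The groups did not overlap, and the arrays of each group lay close together. The means were 731 ± 25.4 and 573 ± 14.0, a log2 difference of -0.34 ± 0.054 (SE; adjusted p = 0.0282), or -21.1%. The call was lost under median centring (adjusted p = 0.0816) and quantile scaling (0.0687). It was also lost when control 2 (0.135), control 3 (0.125), high-sucrose 1 (0.12) or high-sucrose 3 (0.126) was left out, while the log2 difference lay between -0.37 and -0.28 in all alternatives run.

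Other epsilon genes were separated between groups without passing. GstE1, which is known to conjugate products of lipid peroxidation, read 1119.6, 1107 and 1145 in control and 980.1, 981 and 937 in high-sucrose arrays. Its log2 difference was -0.21 ± 0.048 (adjusted p = 0.106). GstE12 read 3409, 3317 and 3454 against 3002, 3029 and 2919.7, a log2 difference of -0.18 ± 0.044 (adjusted p = 0.124). Both genes had no overlap between groups, and GstE12 was at -0.08 under quantile scaling and -0.11 under cyclic loess. GstE3 read 2603, 2613 and 2830 against 2215, 2407 and 2141, a log2 difference of -0.25 ± 0.059 (adjusted p = 0.121) that was -0.14 under quantile scaling. GstE6 read 880.1, 868 and 1219 against 625, 804 and 647, a log2 difference of -0.50 ± 0.14 (adjusted p = 0.177). In GstE6 control 3 stood above the other controls, and high-sucrose 2 came closest to the control range.

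All 13 epsilon genes had differences below 0 (12 under median centring, where GstE14 was at 0.00), from -0.50 to -0.02, with a median of -0.29. In 8 of them (61.5%) the groups did not overlap. Lower values without overlap were seen in 12.6% of all tested probe sets and 18.2% of the upper 50% by mean. GstE14, known as noppera-bo and needed for ecdysteroid synthesis in the prothoracic gland, had low intensities and showed next to no difference. It was at 29.7 ± 2.16 in control and 29.0 ± 2.69 in high-sucrose arrays (log2 difference -0.02, 95% confidence interval -0.29 to 0.25). GstE4, at 15.4 ± 0.596 and 8.54 ± 3.38, had a mean under the lower quartile of all probe-set means (13.5), so its difference depends on the added 16. GstE2, GstE5, GstE7, GstE9, GstE10 and GstE13 had log2 differences from -0.45 to -0.16 and adjusted p-values from 0.359 to 0.575, and GstE13 went from -0.16 to -0.10 under quantile scaling.

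The delta gene GstD10 had the largest log2 difference of the 34 with 16 added to the intensities, and a wide spread between arrays. With 1 added, GstD5 (-1.21) and GstE4 (-0.84), both close to the floor of the scale, exceeded it (-0.72). GstD10 read 956, 1023 and 1271 in control and 537, 821 and 631 in high-sucrose arrays. The groups did not overlap, but the arrays of each group were far apart. The means of 1084 ± 166 and 663 ± 145 gave a log2 difference of -0.71 ± 0.15 (adjusted p = 0.0852). GstD10 passed under median centring (adjusted p = 0.0436) and without high-sucrose 2 (0.0219). Under no other alternative was its adjusted p under 0.05. It was 0.111 under quantile scaling, 0.282 without control 3 and 0.235 without high-sucrose 1.

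GstD9 read 1187, 1296 and 1455 against 908, 1131 and 877, a log2 difference of -0.43 ± 0.10 (adjusted p = 0.125). Among the alternatives it passed only without high-sucrose 2 (adjusted p = 0.0298). Its adjusted p was 0.368 without control 3 and 0.341 without high-sucrose 1. GstD7 read 733, 682 and 1114 against 465, 699 and 531, a log2 difference of -0.55 ± 0.19 (adjusted p = 0.266). In GstD7 the groups overlapped, since high-sucrose 2 lay above control 2, and without control 3 the difference was -0.34. GstD1, which acts on the insecticide DDT and whose promoter is used in flies as a reporter of oxidative stress, read 9066, 9162 and 9469.8 against 8005, 8817 and 8045. Its log2 difference was -0.16 ± 0.052 (adjusted p = 0.257), with no overlap between groups, and it is a probe set near the top of the intensity scale. GstD1 was at -0.08 under quantile scaling and -0.06 under cyclic loess.

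All 11 delta genes had differences below 0 (10 under quantile scaling, where GstD2 was at 0.00), from -0.71 to -0.07, with a median of -0.28. In 4 of them (36.4%) the groups did not overlap, against 12.6% of all tested probe sets and 18.2% of the upper 50% by mean. GstD2, which in flies metabolises plant isothiocyanates, was at 1254 ± 212 and 1189 ± 143 (log2 difference -0.07, 95% confidence interval -0.34 to 0.20). GstD5 was at 22.9 ± 12.6 and 8.53 ± 2.02 (-0.62 ± 0.22; adjusted p = 0.275), close to the floor of the scale. GstD11 was near the floor as well, at 13.5 ± 4.49 and 8.21 ± 2.04 (adjusted p = 0.492). GstD3, GstD4, GstD6 and GstD8 had log2 differences from -0.45 to -0.21 and adjusted p-values from 0.39 to 0.625.

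**Figure D2:**
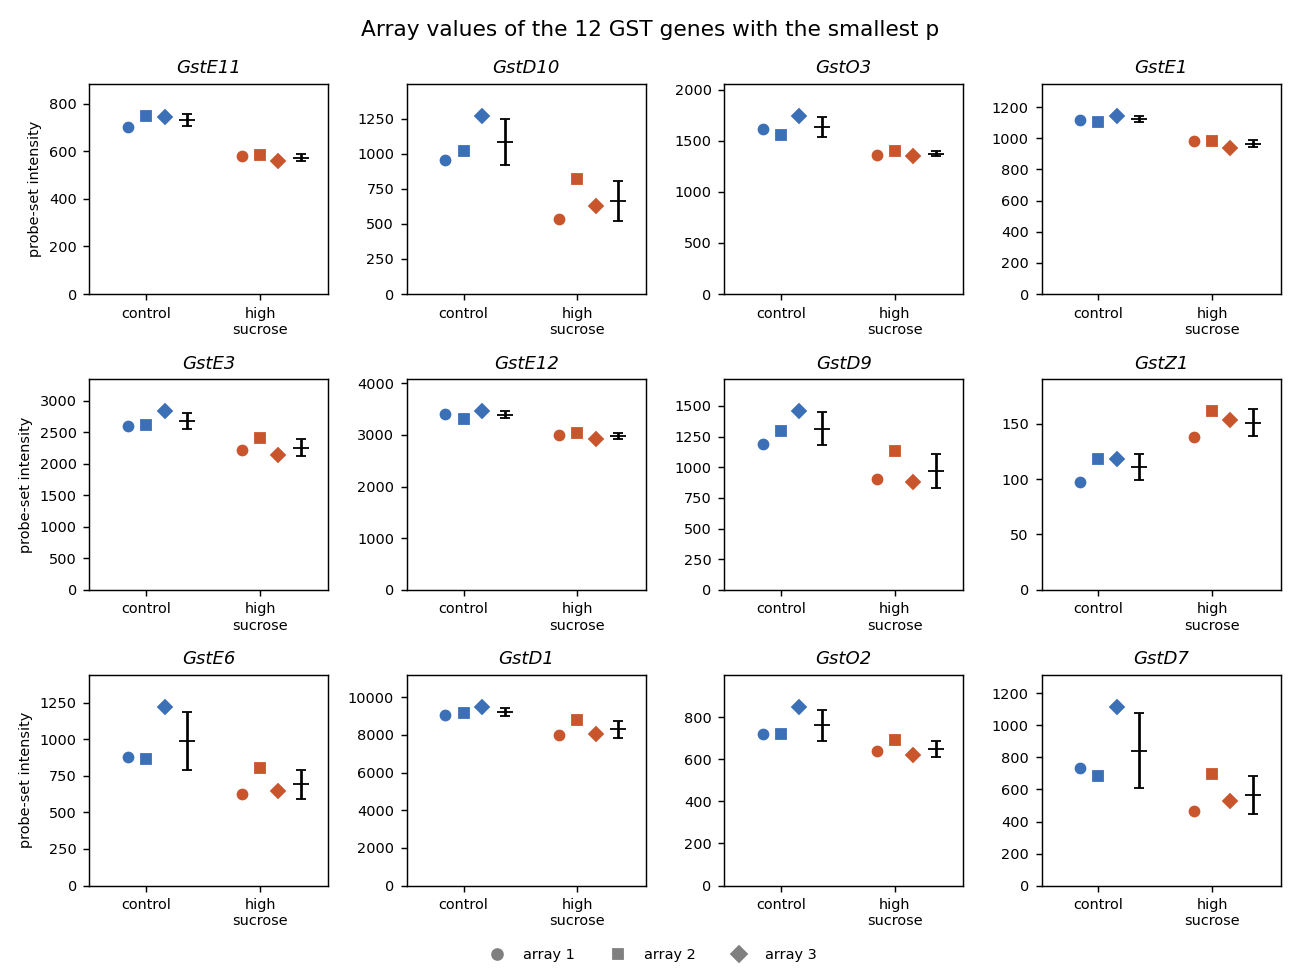
Intensity in every array of the 12 GST genes with the smallest p (y axis: probe-set intensity from 0; x axis: maternal diet; marker shapes: arrays 1 to 3; black bars: mean ± SD, n = 3). In GstE11, GstE1 and GstE12 the arrays of each group lie close together and the groups are apart, in GstD7 the groups overlap, and GstZ1 is the gene with higher high-sucrose values.

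The remaining classes hold enzymes with more specific roles, and here the directions were mixed. Omega GSTs carry out reductions by a cysteine in place of the conjugation typical of other classes. GstO3 read 1613, 1554 and 1747 in control and 1364, 1402 and 1356 in high-sucrose arrays, with no overlap (log2 difference -0.25 ± 0.055; adjusted p = 0.1). GstO2 read 719.9, 719 and 847 against 637, 689 and 618, also without overlap (-0.23 ± 0.076; adjusted p = 0.263). GstO1 was at 313 ± 18.6 and 336 ± 19.6, with a difference of 0.10 on the log2 scale (95% confidence interval -0.06 to 0.26) and overlapping groups. The omega gene se (sepia), which makes a precursor of the red eye pigment and whose symbol keeps it out of the 34, was at the floor of the scale (7.30 ± 4.83 and 10.7 ± 5.10; adjusted p = 0.723).

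Zeta GSTs are known in mammals as the maleylacetoacetate isomerase of tyrosine breakdown. The fly pair had differences of opposite sign. GstZ1 read 97.3, 118 and 118 in control and 138, 161 and 153 in high-sucrose arrays, with no overlap and all high-sucrose arrays above. Its log2 difference was 0.39 ± 0.10 (95% confidence interval 0.17 to 0.62; adjusted p = 0.148). GstZ2 was at 332 ± 31.8 and 279.6 ± 24.5, a log2 difference of -0.24 (95% confidence interval -0.44 to -0.03; adjusted p = 0.32). The intervals of the pair do not overlap, though neither gene passed the test over all probe sets, and the pair was singled out after its values were seen.

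GstS1, the sigma GST, abundant in flight muscle and active on the lipid aldehyde 4-hydroxynonenal, was at 1901 ± 80.0 in control and 2081 ± 123 in high-sucrose arrays. The groups overlapped and the log2 difference was 0.13 ± 0.058 (adjusted p = 0.413). It was 0.20 under quantile scaling and under cyclic loess (adjusted p = 0.271 and 0.236). The 4 theta genes did not pass, with log2 differences of -0.15 for GstT1, -0.23 for GstT2, -0.19 for GstT3 and -0.14 for GstT4. Under quantile scaling GstT1 was at -0.08 and GstT4 at -0.03. Of the 4 theta genes only GstT1 had no overlap between groups (1148 ± 49.6 and 1029.5 ± 42.3; adjusted p = 0.291).

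Set side by side, the class medians were -0.28 for delta, -0.29 for epsilon, -0.23 for omega, -0.17 for theta, 0.08 for the zeta pair and 0.13 for sigma. Under median centring, quantile scaling and cyclic loess the medians of delta and epsilon stayed between -0.27 and -0.25, while that of all tested probe sets was -0.01, 0.00 and 0.00. Under these scalings 30, 30 and 31 of the 34 genes lay below 0, against 51.9%, 49.1% and 49.7% of all tested probe sets. The theta median was -0.11 under quantile scaling. Single arrays and the pseudocount moved some class medians further, in both directions. Delta was at -0.44 without control 2 and also with a pseudocount of 1. It was at -0.23 without control 3 and at -0.20 with a pseudocount of 64. Without control 3 epsilon was at -0.21 and omega at -0.15, and zeta was at 0.02 without high-sucrose 2. The classes other than delta and epsilon have at most 4 genes. No test of the difference between classes was made.

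**Figure D3:**
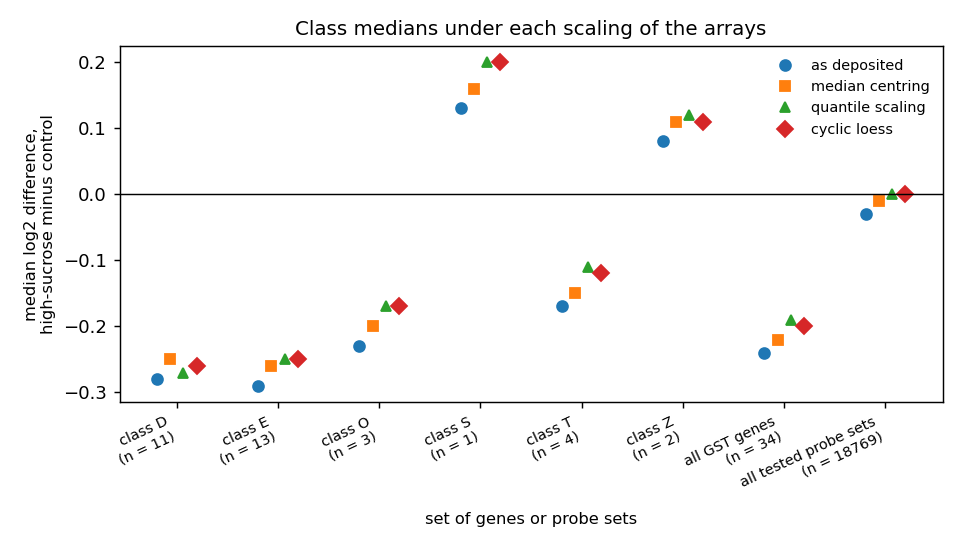
Median log2 difference (high-sucrose minus control, y axis) of each GST class, of all 34 GST genes and of all tested probe sets (x axis), as deposited and under 3 other scalings of the arrays. Delta and epsilon lie between -0.29 and -0.25 under the 4 scalings shown, sigma and zeta lie above 0, and all tested probe sets lie between -0.03 and 0.00.

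In the order of genes of the RefSeq annotation (Release 6 plus ISO1 MT), most of the family lies in tandem. The 11 delta genes form a single run on chromosome arm 3R, which starts with GstD10, GstD9 and GstD1, and only 1 other gene stands before GstD2 and 1 before GstD11. Along that run the log2 difference was -0.71, -0.43 and -0.16 for its first genes and -0.07 and -0.21 for GstD2 and GstD3. Next-door genes of the run thus differed in size while sharing the sign. On arm 2R, GstE10, GstE1 to GstE7 and GstE9 lie in another run (GstE8, also in it, was not analysed here). The 9 measured genes of that run had log2 differences from -0.50 to -0.21 (median -0.35), and the 4 epsilon genes elsewhere on the arm, GstE11 to GstE14, from -0.34 to -0.02 (median -0.17). Without control 3 these medians were -0.23 and -0.14. GstZ1 and GstZ2 are direct neighbours on 3R, and so are GstO2 and GstO1 on 3L, each pair with differences of opposite sign. Probe sequences were not used here, and RNA of 1 paralogue binding to the probes of another was not tested.

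Within each group, the same arrays were high for many GST genes. Control 3 was the highest control array for 23 of the 34 genes (67.6%), where it was so for 36.4% of all tested probe sets and 37.4% of the upper 50% by mean. Among delta genes it was the highest for 10 of 11, and among epsilon genes for 8 of 13. In the high-sucrose group array 2 was the highest for 21 of the 34 (61.8%), against 37.7% of all tested probe sets and 43.3% of the upper 50% by mean. For 8 genes, 6 delta and 2 epsilon, the highest control array exceeded the lowest by over 1.5 times, and in 7 of these 8 control 3 was the highest. Such a spread between control arrays was seen in 23.5% of the GST genes, 34.4% of all tested probe sets and 5.17% of the upper 50% by mean.

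GstE5 is an example, with 322, 291 and 626 in control and 289, 321 and 297 in high-sucrose arrays. Its log2 difference was -0.35, and -0.02 without control 3. GstE7 read 699, 455 and 1093 against 521, 510.3 and 505, and its difference of -0.45 was -0.14 without that array. GstD4 read 229, 242 and 380.2 against 167, 254 and 183, and its difference of -0.45 was -0.23 without it. GstD3, GstD6 and GstD8 went from -0.21, -0.28 and -0.27 to -0.11, -0.08 and -0.10, GstD5 and GstE9 from -0.62 and -0.36 to -0.38 and -0.23, and GstO2 from -0.23 to -0.15. In GstE11 and GstE12 control 3 was 1.02 and 1.03 times the mean of the other control arrays. Without control 3 the family median was -0.18 and 30 of the 34 genes lay below 0, with GstD2 now above (0.06). When each of the 6 arrays was left out in turn, 29 genes were below 0 every time and GstO1, GstS1 and GstZ1 above 0 every time. Of all tested probe sets 38.3% were below 0 every time.

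**Figure D4:**
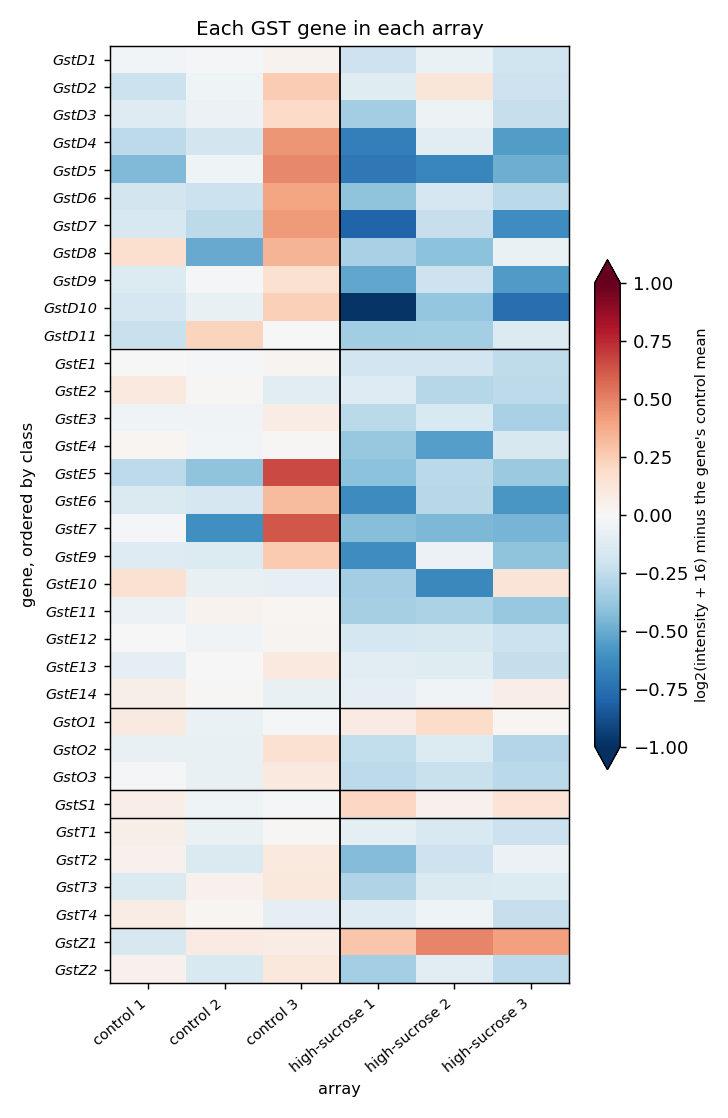
Each GST gene (y axis, by class) in each array (x axis), as log2(intensity + 16) minus the mean of the gene's control arrays (colour: red above, blue below). Control 3 is red for most delta genes and for GstE5 to GstE9, the high-sucrose arrays are blue for most genes, and GstZ1 and GstS1 are red there.

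Genes that make, use or regulate glutathione were read from a separate list, called the glutathione pathway here. The list is broader than that name. It also holds the omega gene se, and Cat, Sod2, Trxr1, Trxr2, Trx2 and eEF1gamma. The counts and medians below are those of the whole list. Of its 27 listed genes 23 had a probe set of their own. Among these 1 fell, 0 rose by limma (also 0 at an unadjusted p under 0.05), and 22 did not pass. Over all tested probe sets 0.570% were called lower. The 23 genes had a median log2 difference of -0.09, with 18 below 0 (78.3%), against 58.9% of all tested probe sets. Under quantile scaling 14 of the 23 (60.9%) were below 0, against 49.1%. Under median centring and cyclic loess it was 15 each time (65.2%), against 51.9% and 49.7%. The median was -0.01 under quantile scaling and -0.02 under cyclic loess. Gclc was the gene that fell; it encodes the catalytic part of the ligase at the first step of glutathione synthesis, and its intensity went from 605 ± 61.7 to 414 ± 41.5 (-0.53 ± 0.094; adjusted p = 0.0466). Its regulatory subunit Gclm was at 314 ± 40.3 and 257 ± 9.75 (adjusted p = 0.276). With single arrays left out, Gclc passed without control 1 or high-sucrose 2 and did not pass without control 2 (adjusted p = 0.182), control 3 (0.188), high-sucrose 1 (0.123) or high-sucrose 3 (0.132).

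Mgstl, a microsomal transferase of a separate protein family, was at 3775 ± 253 and 3020 ± 231 without overlap (-0.32 ± 0.069; adjusted p = 0.0918). Grx1, a glutaredoxin that uses glutathione to reduce proteins, was at 1178 ± 64.6 and 1014 ± 28.4 (adjusted p = 0.164). None of the regulators passed: cnc was at 2729 ± 226 and 2800 ± 16.3 (adjusted p = 0.836), maf-S at 730 ± 17.7 and 694 ± 7.90 (0.608) and Keap1 at 129 ± 7.06 and 114 ± 7.60 (0.49). MRP, an exporter of glutathione conjugates, was at 850 ± 87.8 and 742 ± 64.6 (0.41). RNA levels do not measure the activity of the factor that cnc encodes.

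Markers of tissues and cell types of the larva were read beside these results, and their part in them was not tested. The 7 measured midgut markers had a median log2 difference of -0.51 (-0.41 under quantile scaling), with 6 below 0. Of them 3 fell (Jon99Fi, Mal-A1 and Npc2e), none of which passed without control 2 (adjusted p = 0.102, 0.0796 and 0.111). Over all tested probe sets 0.570% were called lower. The markers alphaTry (adjusted p = 0.0805) and Jon65Aiii (0.194) were lower without overlap and did not pass. LManII was the 1 midgut marker above 0, at 972 ± 55.8 and 1042 ± 16.8 without overlap (log2 difference 0.10, adjusted p = 0.504). In betaTry the groups overlapped (log2 difference -0.11, adjusted p = 0.872). The summed intensity of the 7 lay between 26579 and 27409 in controls and between 20611 and 21774 in the high-sucrose group. The 4 fat body markers summed to 30701 to 33197 and 29094 to 30008, and the 4 tubule markers to 893 to 931 and 784 to 822, with 0 called in either list by limma (3 and 2 lower at an unadjusted p under 0.05). In all 3 lists the sums of the deposited intensities did not overlap between groups, and none of their markers was at 0. The fat body median of -0.12 was -0.03 under quantile scaling and -0.02 under cyclic loess. The tubule median was -0.21, and -0.17 under quantile scaling. Of 4 haemocyte markers He fell (adjusted p = 0.0282; median of the list -0.27), and the sums were 4311 to 4891 and 3968 to 4297. Hml was the 1 haemocyte marker above 0, at 1139 ± 50.3 and 1233 ± 86.6 with overlap (log2 difference 0.11, adjusted p = 0.509). Testis markers went the other way: all 5 had no overlap with higher values in the high-sucrose group (median 0.39), against 5.96% of all tested probe sets. Mst98Ca rose (adjusted p = 0.0357), and the sums were 2283 to 2563 and 2938 to 3067. He and Mst98Ca did not pass when any 1 array was left out (adjusted p from 0.056 to 0.135 and from 0.0555 to 0.151). The 3 salivary gland, 2 muscle and 3 neuron markers all overlapped between groups, with 0 called by limma. Their list medians were 0.05, 0.01 and 0.04 on the log2 scale, and Sgs5 of the salivary gland was at 0.30 (adjusted p = 0.359). Defining markers of fat body, gut, salivary gland and muscle were bright in all arrays, while nSyb of neurons was near the floor (mean 11.3).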

How the data were processed

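The members and gene lists were chosen with earlier results of these data known. Per the labels, total RNA was labelled with biotin from 2 ug and hybridised to Affymetrix arrays. The authors deposited 1 linear intensity per probe set and array (18952 probe sets); probe summary, background correction and scaling between arrays were not stated in the sources used here. From 26.7% to 30.2% of an array's values lay under 16.

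Control probe sets (183) were left out. Genes were named from probe sets with a single symbol (13647; 402 carry several and 4720 none) and matched by gene ID to RefSeq, where all 34 GST genes were found under the same symbol. Of them 32 have an ordinary probe set, while GstS1 and GstZ2 have types (_s_at and _a_at) that can detect several transcripts. Differences were tested with limma 3.58.1 in R 4.3.3 on log2(intensity + 16), a linear model of maternal diet with variances following intensity (4 residual and 5.16 prior degrees of freedom), Benjamini-Hochberg adjusted over 18769 probe sets. The titles number the arrays as biological replicates; same-numbered arrays did not deviate together (correlations 0.052, 0.022 and -0.043 over 9385 probe sets), so no pairing was used. The 12 genes with the smallest p are given array by array; others named singly were picked after their values were seen. The method was tested on simulated data: of 200 brighter probe sets lowered by 0.3, 0.6 or 1 on the log2 scale among 18769, with 3 arrays against 3, it recovered 6.75%, 86.8% and 99.1%, and 15.7%, 6.85% and 7.14% of its calls were false. The number of arrays limits the precision. Alternatives were other scalings, pseudocounts, filters, variance models, array weights, a replicate block and each array left out. No sequences are shown.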

Additional observations from a re-analysis of the deposited data

How the results depend on the processing

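The count of 1 GST gene lower was 0 without the variance trend, under quantile scaling and with the replicate block (GstE11 adjusted p = 0.0981), 2 at an adjusted p under 0.10 (1.21% of all probe sets), and 0 to 3 when single arrays were left out. It was 3 without high-sucrose 2 (GstE11, GstD9 and GstD10), 1 without control 1, and 0 when any of the other 4 arrays was left out. Under median centring the 1 gene was GstD10 in place of GstE11. The glutathione pathway count of 1 lower was 0 without the variance trend, with a pseudocount of 64, under quantile scaling and with the replicate block, 2 with the robust variance model and at an adjusted p under 0.10, and 0 to 1 when single arrays were left out. The block changed no other call of these genes. The counts of higher genes stayed at 0 in both sets under every alternative run. The family median lay between -0.28 and -0.18, and the count of 15 genes lower without overlap between 11 and 22. The counts from 17 to 22 came from leaving out 1 array. With fewer arrays any probe set separates more readily, and the share over all probe sets is not given for these settings. The count was 14 without GstD11 and GstE4, whose means lie under the lower quartile of all probe-set means, an alternative chosen after seeing the data. GstE11 passed in 9 of 17 alternatives and did not pass in 8. Of the 9, 1 was the looser adjusted p threshold of 0.10. It is no check of GstE11, since a gene that passes the stricter threshold cannot fail it. In simulated data, differences of 0.3 on the log2 scale were mostly missed at this number of arrays, and 15.7% of the calls made there were false. The noise there was drawn for each probe set on its own, whereas many GST genes were high in the same arrays. Why most GST genes did not pass was not tested.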

Other observations

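GstE9 and GstO2 have a second probe set, of lower mean, that the comparison did not use. For GstE9 it read 64.6 ± 13.5 in control and 44.9 ± 2.46 in high-sucrose arrays, without overlap (log2 difference -0.39; adjusted p = 0.281), where the probe set used overlapped between groups (-0.36; adjusted p = 0.359). For GstO2 it read 295 ± 24.8 and 258 ± 29.8, with overlap (-0.18; adjusted p = 0.472), against -0.23 without overlap for the one used. Control 2, not control 3, was the highest control array for both of these second probe sets. The pair of each gene gave the same direction.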
